A study of Mus musculus with 2 samples.

Results

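The mesothelial cells of the liver capsule were 181 of 6765 cells of WT replicate 1 (2.68%, 95% exact binomial interval 2.30 to 3.09), and 0 of 2341 cells of WT replicate 2 met the same rule. They were selected on their own counts: a cell was taken when the genes Msln, Upk3b, Lrrn4, Upk1b, Muc16 and Gpm6a together had at least 10 UMIs (unique molecular identifiers, that is, counted mRNA molecules) and at most 20% of its UMIs came from mitochondrial genes. They are described against the 6584 other cells of WT replicate 1 under the same mitochondrial limit. Because these values chose the cells and the cells share 1 library, no test was made, and each fold change is a description of this library. Intervals cover counting error only.

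The study profiled single cells of healthy liver from 8-week-old wild-type C57BL/6 mice with the 10x Genomics droplet method, which reads the 3' ends of mRNA. Both samples, WT replicate 1 and WT replicate 2, carry the same labels: livers dissociated with enzymes, then a Percoll gradient of 25 and 50%. The labels do not say whether the samples are separate animals, and they name no treatment. The table held 7362 cells and 40645060 UMIs for WT replicate 1, and 2341 cells and 11867207 UMIs for WT replicate 2. In WT replicate 2, 2340 cells had at least 10 UMIs over 6 stellate cell genes (Lrat, Reln, Colec11, Hgf, Ecm1 and Vipr1), all 6 rule genes are listed at 0, and no gene of the table is seen in just 1 or 2 of its cells, so a rarely seen gene may be listed at 0 there. 5 barcodes occur in both libraries.

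Mesothelium is the flat epithelium of mesodermal origin that covers the liver and the wall of the abdominal cavity. Its cells carry keratins together with vimentin, bear microvilli and a coat of mucins and hyaluronan, secrete lubricating fluid and rest on a thin layer of matrix, the capsule. In the embryo, cells of this layer give rise to stellate cells and perivascular fibroblasts, and the transcription factor Wt1 is a classic mark of it.

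Of the rule genes, Msln (mesothelin, a cell surface protein tethered by a lipid anchor) lies at chr17:25748613-25754378 on the minus strand of GRCm38 in the GENCODE annotation, Upk3b (a uroplakin of apical membranes) at chr5:136038496-136046487 on the plus strand, and Muc16 (a membrane mucin) at chr9:18495455-18674530 on the minus strand. Promoters of rule genes in the RefSeq table of GRCm38.p6 (250 bases before the start site and 50 after it) are shown because these genes define the cells. With them stands the promoter of Myl7, an atrial myosin light chain whose level had the largest ratio to the other cells among genes in no list with at least 100 CPM. Capitals mark GGAATG on either strand, the core of the motif bound by TEAD factors, which act with Yap1 and Wwtr1.
Upk3b, chr5:136038246-136038545, plus strand: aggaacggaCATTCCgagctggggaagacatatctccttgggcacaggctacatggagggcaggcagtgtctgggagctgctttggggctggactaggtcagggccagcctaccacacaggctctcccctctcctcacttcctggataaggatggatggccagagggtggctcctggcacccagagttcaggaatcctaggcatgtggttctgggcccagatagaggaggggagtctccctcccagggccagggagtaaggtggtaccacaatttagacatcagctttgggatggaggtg
Lrrn4, chr2:132880813-132881112, minus strand: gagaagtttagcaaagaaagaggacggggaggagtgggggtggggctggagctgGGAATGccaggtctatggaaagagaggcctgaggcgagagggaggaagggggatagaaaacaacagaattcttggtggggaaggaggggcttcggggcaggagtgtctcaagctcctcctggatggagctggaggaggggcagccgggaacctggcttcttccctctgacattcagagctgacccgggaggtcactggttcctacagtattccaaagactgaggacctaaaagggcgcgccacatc
Gpm6a, first of 2 start sites, chr8:54779184-54779483, plus strand: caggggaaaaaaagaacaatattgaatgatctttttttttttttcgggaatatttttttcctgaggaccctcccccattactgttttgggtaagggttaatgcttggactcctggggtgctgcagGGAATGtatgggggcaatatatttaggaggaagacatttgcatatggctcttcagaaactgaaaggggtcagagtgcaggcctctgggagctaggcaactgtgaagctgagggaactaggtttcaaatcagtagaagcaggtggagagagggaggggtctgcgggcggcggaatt
Muc16, chr9:18674554-18674853, minus strand: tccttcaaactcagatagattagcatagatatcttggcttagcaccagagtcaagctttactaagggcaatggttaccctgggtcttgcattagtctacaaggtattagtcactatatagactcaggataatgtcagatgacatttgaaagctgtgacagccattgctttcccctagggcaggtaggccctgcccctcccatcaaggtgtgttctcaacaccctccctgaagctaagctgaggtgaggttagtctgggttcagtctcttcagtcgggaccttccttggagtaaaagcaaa
Myl7, chr11:5898733-5899032, minus strand: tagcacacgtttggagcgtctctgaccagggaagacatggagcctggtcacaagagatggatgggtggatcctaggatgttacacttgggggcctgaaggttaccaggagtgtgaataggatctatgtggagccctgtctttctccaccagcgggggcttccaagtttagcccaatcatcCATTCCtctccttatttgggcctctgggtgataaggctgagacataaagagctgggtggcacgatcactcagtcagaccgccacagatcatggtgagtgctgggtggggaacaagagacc
The promoters of Upk3b, Lrrn4, Myl7 and the first Gpm6a start site each held 1 match. That of Muc16 and the other Gpm6a start site held 0, and 4817 of 32851 promoters of that table (14.7%) hold one. The first Gpm6a start site lies outside the gene as the GENCODE annotation places it (chr8:54954843-55060871). The Gpm6a window with 0 matches, chr8:54954478-54954777, ends just before that gene. The match began 241 bases upstream of the start site in Upk3b and 70 bases upstream in Myl7. The GATA core GATAAG, on either strand, was found in the promoters of Upk3b and Myl7 among these and in 7.44% of all promoters. A match is a run of letters in this window and not a measured binding site.

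The rule genes were spread widely over the cells. Their sum per cell had a median of 71 UMIs and a highest value of 406, 153 of the 181 mesothelial cells had all 6 genes, 10 had 5 and 18 had 4 or fewer. Just inside the threshold, 3 cells had 10 UMIs and 3 had 11, and just outside it 2 cells had 9 UMIs and 1 had 8. Of the 6584 other cells, 6235 had 0. The rule thus cut where few cells lay, as the plot of the rule sum shows.

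**Figure D1:**
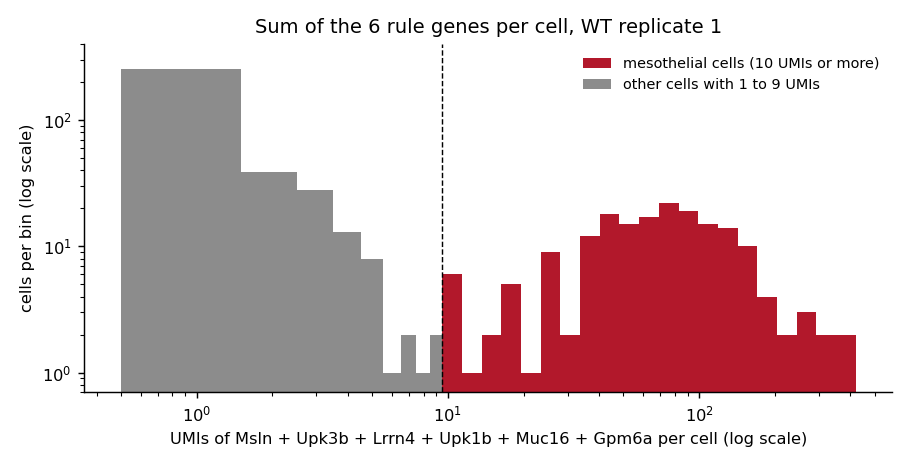
Sum of UMIs of the 6 rule genes per cell of WT replicate 1 (horizontal axis, log scale) against the number of cells per bin (vertical axis, log scale), with the 181 mesothelial cells in red and other cells with 1 to 9 UMIs in grey; the dashed line is the threshold. The 6235 other cells at 0 are not drawn, and few cells lie on either side of the line.

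Per gene, Upk3b stood at 1832 CPM (its UMIs in the summed cells per 1000000 UMIs of all genes) in mesothelial cells, against 1.94 CPM in the other cells. Msln stood at 1468 against 2.36 CPM, Gpm6a (a membrane glycoprotein first known from neurons) at 1262 against 10.2 CPM, and Lrrn4 (a leucine-rich repeat membrane protein) at 576 against 0.456 CPM. Upk1b, a uroplakin of the tetraspanin family, had 466 against 0.655 CPM and Muc16 359 against 0.228 CPM. Per cell, Upk3b ran from 0 to 62.3 UMIs per 10000, with a median of 19.1, and Msln from 0 to 76.0, with a median of 14.4. These values chose the cells, and they are given for description.

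Not every cell above the threshold bore the label out. 6 mesothelial cells had at least 10 UMIs over Epcam, Sox9, Cldn7 and Ddit4l, genes of cholangiocytes, the epithelial cells of bile ducts. They had 15500 to 66125 UMIs in all and 11 to 28 UMIs of the rule genes, with a median of 13.5 for Msln. Dcn, Rspo1, Muc16 and Myl7 had 0 UMIs in each of these 6 cells, and Slpi and Lrrn4 were each seen in 1. Other mesothelial genes were present: Wt1, Upk3b and Nkain4 were each seen in 4 of the 6, with a median of 1 UMI, and Igfbp5 in 5. A further cell met the rule through 10 UMIs of Gpm6a alone and had 0 UMIs of Wt1 and Slpi, but 134 UMIs of Igfbp5. Kupffer cell genes (Clec4f, Vsig4, Timd4, Marco, Cd163 and Folr2) reached 10 UMIs in 19 mesothelial cells, sinusoidal endothelial genes in 9, hepatocyte genes in 2 and T cell genes in 1. In all, 33 cells carried another type's genes by one of these marks, with a median of 15148 UMIs, against 11909 UMIs in the 148 without. Doublets (2 cells in 1 droplet) were not removed, and the part of doublets or free RNA in these cells was not tested. Values without these 33 carriers are given beside some genes that those types share. Levels of mesothelial cells given with no such value include the carriers, among them those of Krt19, Il1b, Cyp26b1, F8, Cd93 and Emcn. For genes that chose the carriers, such as Epcam and Sox9, the value without them is lower by that choice.

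Most markers of mesothelium outside the rule bore out the label. Wt1 had 365 CPM in mesothelial cells (342 to 389, exact Poisson interval), against 3.02 CPM in the other cells, and was seen in 92.3% of mesothelial and 0.775% of other cells. Bnc1 (basonuclin, a zinc finger factor of keratinocytes and mesothelium) had 109 against 0.228 CPM, Krt19 1038 against 36.4 CPM and Nkain4 1053 against 2.45 CPM. Podxl (podocalyxin, a charged sialomucin) went the other way, with 75.2 CPM in mesothelial cells against 163 CPM in the other cells, which include endothelium. Calb2 was not analysed here.

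Against all other cells, 9602 genes had at least 10 CPM as the mean of both sides. Of these, 1449 (15.1%) were at least 2-fold higher in mesothelial cells and 1876 (19.5%) at least 2-fold lower, with a median log2 fold change of -0.08. Without the level filter, 6224 genes were higher and 3677 lower. The lists below are read beside these shares. Of 20 measured mesothelial genes outside the rule that passed the level filter, 17 were at least 2-fold higher and 2 lower, with a median log2 fold change of 6.67. Slpi, a secreted inhibitor of leukocyte proteases, had 6609 CPM in mesothelial cells and 12 CPM in the other cells (549-fold, 498 to 606). Chst4, a sulfotransferase that modifies mucin sugars, had 169 against 0.057 CPM, the second value from 2 UMIs, so its ratio of 2974 has an interval of 818 to 24635. Efemp1 (fibulin-3, an extracellular matrix protein) had 2144 against 19.9 CPM, and Rarres2 (chemerin, a chemoattractant for immune cells) 5609 against 58.8 CPM.

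Among genes in no list, the largest ratios with at least 100 CPM in mesothelial cells included Myl7, with 630.4 CPM against 0.313 CPM in the other cells (2012-fold, 1121 to 4038). Prph (peripherin, an intermediate filament known from neurons) had 157 against 0.171 CPM and Lgals7 (galectin-7, a lectin of stratified epithelia) 271 against 0.37 CPM. Lrp2 (megalin, an endocytic receptor of absorptive epithelia) had 202 against 0.313 CPM, Atp6v0a4 (a proton pump subunit) 145 against 0.427 CPM, and Star (a carrier of cholesterol into mitochondria) 176 against 1.57 CPM. Among the lowest ratios with at least 100 CPM in the other cells were the endothelial genes Cd93 (5.82 against 226 CPM) and Emcn (3.1 against 109 CPM) and the neutrophil genes S100a8 (0.388 against 104 CPM) and S100a9 (0.775 against 131 CPM).

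**Figure D2:**
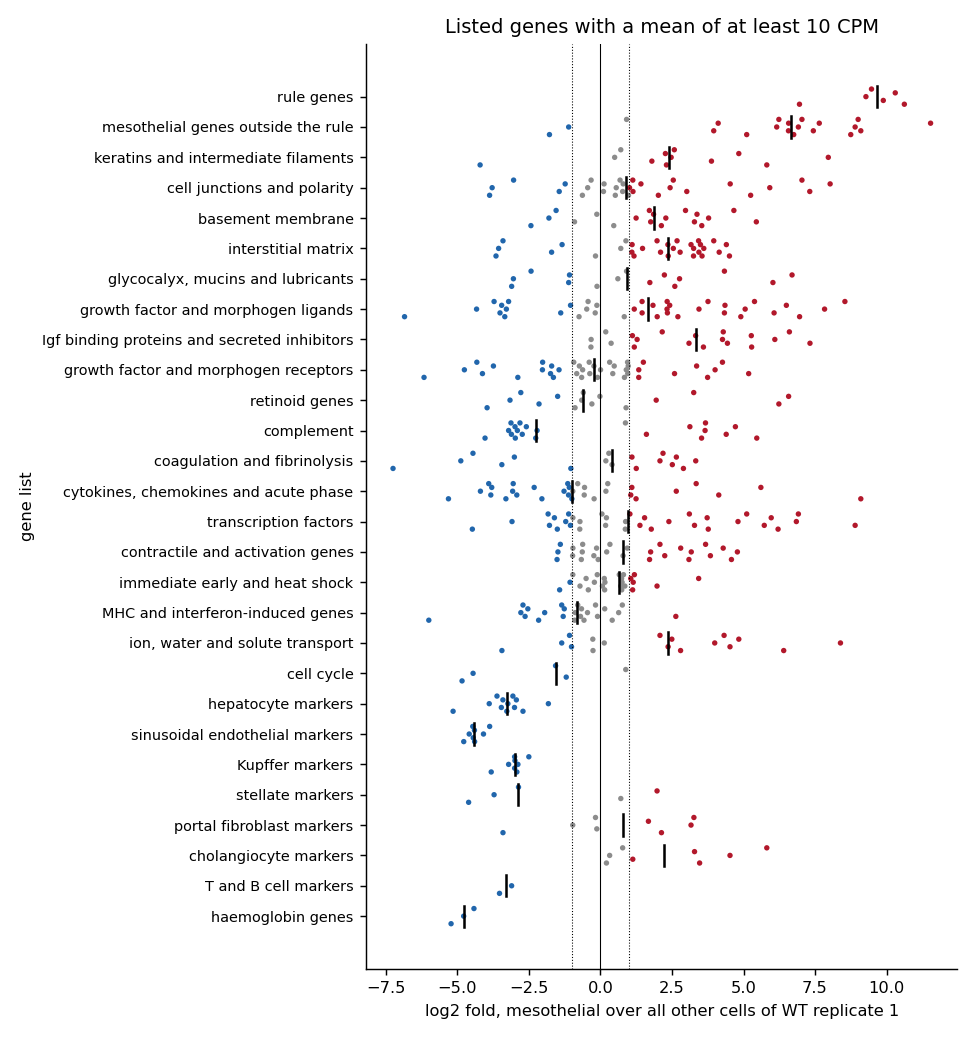
Log2 fold change of each listed gene, mesothelial cells over all other cells of WT replicate 1 (horizontal axis), by gene list (vertical axis). Red points are at least 2-fold higher, blue points at least 2-fold lower, dotted lines mark 2-fold and black ticks the list medians; genes with a mean of at least 10 CPM are drawn, and the mesothelial list outside the rule has its median at 6.67.

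The cytoskeleton had both epithelial and mesenchymal filaments. Of 12 filament genes that passed the filter, 9 were at least 2-fold higher and 1 lower in mesothelial cells. Krt7 had 489 CPM in mesothelial cells and 8.69 CPM in the other cells, and Vim (vimentin) 2628 against 439 CPM. Krt18 had 598 against 108 CPM and Krt8 580.4 against 117 CPM, and without the 33 carriers their ratios were 3.1 and 2.89 in place of 5.54 and 4.94. Krt14, a keratin of basal layers of stratified epithelia, was low, with 21.3 against 0.0855 CPM. The fold change of Nes (nestin), the filament gene that was lower, came from 1.94 against 35.8 CPM.

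Of 30 genes of cell junctions and polarity, 14 were at least 2-fold higher and 5 lower, and without the carriers 9 were higher and 8 lower. Cldn15, a claudin that forms cation pores, had 402 CPM in mesothelial cells and 3.05 CPM in the other cells. Cdh11, a mesenchymal cadherin, had 168 against 1.05 CPM, while Epcam, an epithelial adhesion protein, had 88.4 against 40.4 CPM. Without the carriers, which Epcam helped to choose, it had 3.95 CPM in mesothelial cells. Ezr (ezrin, which ties actin to the membrane of microvilli) had 1069 against 68.8 CPM.

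The surface coat and transport genes split by gene. Of 15 genes of glycocalyx, mucins and lubricants, 7 were at least 2-fold higher and 5 lower. Gpc3 (a glypican, a heparan sulfate proteoglycan) had 732 CPM in mesothelial cells against 7.06 CPM in the other cells, and Has1, a hyaluronan synthase, 108 against 1.65 CPM. Has2 and Muc4 had 0 UMIs in mesothelial cells. Of 17 transport genes, 10 were at least 2-fold higher and 4 lower. Slc16a1 (a lactate transporter) had 540.5 against 6.38 CPM, Slc4a4 (a sodium bicarbonate cotransporter) 324 against 16.2 CPM and Clic3 (a chloride channel family protein) 124 against 0.37 CPM. The water channel Aqp1 had 759.5 against 1609 CPM and was thus at least 2-fold lower beside cells that include sinusoidal endothelium at 3393 CPM.

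Matrix genes were mostly higher. Of 31 interstitial matrix genes, 23 were at least 2-fold higher and 5 lower, and of 19 basement membrane genes 13 were higher and 3 lower. Dcn (decorin, a proteoglycan that binds collagen fibrils) had 6113 CPM in mesothelial cells and 393 CPM in the other cells, and Col3a1 929 against 97.3 CPM. In the stellate cells of WT replicate 2 Dcn stood at 27293 CPM. Fmod (fibromodulin, of the same proteoglycan family, in no list) had 556 against 5.55 CPM. The basement membrane gene Fras1, which joins epithelium to the tissue beneath it, had 78.3 against 1.79 CPM and Col4a4 93.4 against 6.81 CPM, while Col4a1 was lower, with 48.5 against 261 CPM.

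Of 38 growth factor and morphogen ligands, 22 were at least 2-fold higher and 10 lower in mesothelial cells. Rspo1 (R-spondin 1, an enhancer of Wnt signalling) had 691 CPM in mesothelial cells and 1.85 CPM in the other cells (373-fold, 291 to 486), whereas Rspo3, the R-spondin of central vein endothelium, had 1.16 against 134 CPM. Wnt2b had 26 against 0.114 CPM, Wnt5a 113 against 3.39 CPM and Bmp4 108 against 9.91 CPM. Gas6, a ligand of the Axl and Mertk receptors, had 1339.5 against 267 CPM. Fgf18 had 80.3 against 1.20 CPM, and Bmp5, Wnt9b, Fgf10, Dhh and Shh had 0 UMIs in mesothelial cells.

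Secreted binders and inhibitors of growth factors had 15 of 19 genes at least 2-fold higher and 0 lower. Igfbp5 had 10566 CPM in mesothelial cells and 66 CPM in the other cells, and Igfbp6 4962 against 51.0 CPM. Per cell, Igfbp5 ran from 0 to 310.4 UMIs per 10000 with a median of 97.1, and Slpi from 0 to 446 with a median of 47.8. Both genes thus ran from no UMI in some cells to levels far above the median in others. The Bmp antagonist Chrdl1 (in no list) had 162 against 1.11 CPM. Of 39 receptors, 9 were at least 2-fold higher and 12 lower, among them Kdr (a Vegf receptor) with 375 CPM in mesothelial cells and 1259 CPM in the other cells, and Met (the Hgf receptor), higher with 78.7 against 4.90 CPM.

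Of 21 complement genes, 8 were at least 2-fold higher and 12 lower. The higher ones included C3, the central component (8726 against 198 CPM), Serping1, the inhibitor of C1 (2052 against 78.1 CPM), and C1s1 and C2 (641 against 50.4 CPM for C2). C1qa, made by macrophages, was lower, with 235 against 1761 CPM, and stood at 19.8 CPM in mesothelial cells without the carriers. Of 17 coagulation and fibrinolysis genes 8 were higher and 6 lower, with Plat (tissue plasminogen activator) at 93.8 against 14.9 CPM and F8 at 19 against 418 CPM. Of 31 cytokine, chemokine and acute phase genes 8 were higher and 16 lower: Ptgis (prostacyclin synthase) had 553 against 31.5 CPM, and Il1b 143 against 1202 CPM.

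Retinoid genes passed the filter in 15 cases, of which 4 were at least 2-fold higher and 5 lower. Aldh1a2, which makes retinoic acid, had 157 CPM in mesothelial cells and 2.08 CPM in the other cells, and Cyp26b1, which breaks it down, 41.5 against 647 CPM. Of 34 transcription factors 17 were higher and 9 lower. Isl1 had 36.1 against 0.313 CPM, Gata5 29.5 against 0.399 CPM, Gata6 201 against 15.2 CPM and Gata4 31.0 against 107 CPM. Tead1, of the TEAD family named above, had 185 against 35.3 CPM.

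Of 24 MHC and interferon-induced genes 1 was at least 2-fold higher, Gbp2 (442 against 71.3 CPM), and 10 were lower. The class II gene H2-Aa had 180.3 CPM in mesothelial cells, against 1242 CPM in the other cells, and 44.5 CPM without the carriers. Immediate early and heat shock genes, which tissue dissociation is known to induce, had 6 of 25 higher and 2 lower, with Fos at 4235 against 2593 CPM. Of 27 contractile and activation genes 12 were higher and 3 lower, and Acta2 (smooth muscle actin) had 99.3 against 57.4 CPM. Of 5 cell cycle genes that passed, 0 were higher and 4 lower, and Top2a had 1.16 against 33.3 CPM.

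Genes of other cell types differed by type. All 12 hepatocyte, 8 sinusoidal endothelial and 8 Kupffer markers were at least 2-fold lower in mesothelial cells than in the other cells, which include those types. Their summed level was 650.2 against 5530.1 CPM for hepatocyte, 359 against 7925 CPM for sinusoidal endothelial and 795 against 6319.8 CPM for Kupffer markers. Without the carriers the mesothelial sums were 450.5, 65.2 and 70.1 CPM in that order. The carriers were chosen on genes of these types, so leaving them out lowers the sums by that choice. Most markers of cholangiocytes and portal fibroblasts were not lower, whereas most stellate markers that passed the filter were. Of 8 cholangiocyte markers 5 were at least 2-fold higher and 0 lower, with a sum of 1408 CPM in mesothelial cells (1079.8 CPM without the carriers) against 181 CPM in the other cells. Bicc1 (an RNA-binding protein) had 518 against 46.9 CPM, while Sox9, a transcription factor of bile ducts, had 30.2 against 26.2 CPM. Without the carriers, which Sox9 helped to choose, it had 1.48 CPM in mesothelial cells. Of 8 portal fibroblast markers 4 were higher and 1 lower, with a sum of 911 CPM (1123 CPM without the carriers) against 223 CPM. Of 5 stellate markers that passed, 1 was higher and 3 lower, and the sum over the list was 338 against 209 CPM, of which Ecm1 had 301 against 76.4 CPM. The part of other cells' RNA in these levels was not tested. The B and T cell genes Cd79a, Ms4a1 and Cd2 had 0 UMIs in mesothelial cells.

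After thinning each cell to 2000 UMIs, Slpi was seen in 77.3% of the 181 mesothelial cells, against 1.96% of Kupffer gate and 2.04% of T cell gate cells (median depths 12203, 4450 and 3471 UMIs before thinning). Igfbp5 was seen in 95% of mesothelial, 2.22% of Kupffer gate and 0% of T cell gate cells, and C3 in 98.9%, 10.2% and 5.44%. The unthinned share of Slpi was 87.3% in mesothelial cells, against 3.69% of all other cells. What gave the shares in T cell gate cells was not tested. Shares of portal fibroblast and cholangiocyte gate cells are not given here, so these values do not show genes particular to mesothelial cells. Complement genes summed to 15965 CPM in mesothelial, 6221 CPM in portal fibroblast gate and 14423 CPM in cholangiocyte gate cells. Secreted binders and inhibitors summed to 19681, 11332 and 933 CPM in that order.

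The question of how mesothelial cells differ from the connective tissue and epithelial cells of the same liver was put with 90 portal fibroblast gate cells (at least 10 UMIs over Dpt, Clec3b, Col1a1, Mfap4, Thy1 and Entpd2) and 75 cholangiocyte gate cells (at least 10 UMIs over Epcam, Krt7, Sox9, Cldn7, Bicc1 and Ddit4l). A cell that met another gate as well was left out of both. Of 9311 genes, 1333 (14.3%) were at least 2-fold higher and 1024 (11%) lower in mesothelial than in portal fibroblast gate cells. Of 9531 genes, 1458 (15.3%) were higher and 1532 (16.1%) lower than in cholangiocyte gate cells.

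Against portal fibroblast gate cells, keratin and transport genes were more often higher and matrix genes lower in mesothelial cells. Of 11 filament genes 6 were at least 2-fold higher and 1 lower, and of 17 genes of glycocalyx, mucins and lubricants 7 were higher and 4 lower. Krt19 had 1038 CPM in mesothelial cells and 3.08 CPM in portal fibroblast gate cells, Fxyd3 (a regulator of the sodium pump) 646 CPM against 0 UMIs, and Slc39a8 (a zinc importer) 637 against 4.63 CPM. Fxyd3 was thus at least 139.5-fold higher in mesothelial cells, with 3 UMIs over the group as the floor. Of 35 interstitial matrix genes, 0 were at least 2-fold higher and 27 lower in mesothelial cells, with a median log2 fold change of -1.93 beside 0.05 over all genes. Dpt (dermatopontin) had 5.04 against 2037 CPM, Dcn 6113 against 12262 CPM and Col1a1 432 against 1641 CPM, of which Dpt and Col1a1 are gate genes. Of 18 transport genes 15 were higher and 2 lower, and of 19 complement genes 11 were higher and 3 lower. Lists that were mostly higher against all other cells were not so here. Of 22 secreted binders and inhibitors 4 were higher and 7 lower, and of 45 growth factor and morphogen ligands 13 were higher and 15 lower. Of 22 basement membrane genes 4 were higher and 10 lower. MHC and interferon-induced genes went the other way: 13 of 23 were higher and 2 lower here, whereas 1 of 24 was higher and 10 lower against all other cells.

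Against cholangiocyte gate cells the picture turned to matrix and secreted binders. Of 26 interstitial matrix genes 23 were at least 2-fold higher and 1 lower in mesothelial cells, and of 19 binders and inhibitors 17 were higher and 0 lower. Igfbp5 had 10566 CPM in mesothelial cells and 17.8 CPM in cholangiocyte gate cells, Dcn 6113 against 5.10 CPM and Gas1 (a growth arrest protein bound to the membrane) 1551 against 3.82 CPM. Krt8 was lower in mesothelial cells, with 580.4 against 2648 CPM, as was Krt18 with 598 against 2479 CPM, while Krt19 was close, with 1038 against 971 CPM. Of 34 junction genes 9 were higher and 17 lower, and of 22 MHC and interferon-induced genes 7 were higher and 0 lower. Gas6 had 1339.5 against 1265 CPM, a ratio of 1.06 (0.987 to 1.14). Scaling by TMM factors moves all these log2 fold changes up by 0.21.

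**Figure D3:**
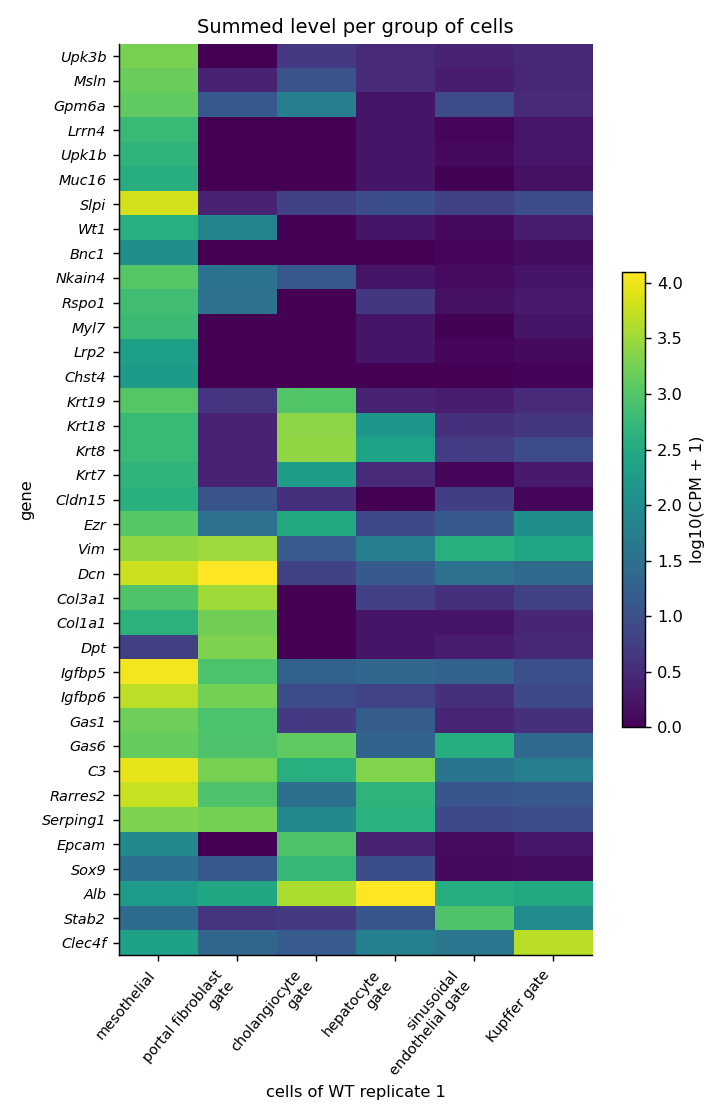
Summed level of 37 genes (rows) in mesothelial cells and 5 gated groups of WT replicate 1 (columns), as log10 of CPM plus 1. Slpi (6609 CPM) and Myl7 (630.4 CPM) are bright in the mesothelial column, Krt19 is bright there and in the cholangiocyte gate (971 CPM), and Dcn there and in the portal fibroblast gate (12262 CPM); Wt1 is weaker in the portal fibroblast gate, at 70.9 CPM.

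The mesothelial cells were not alike among themselves. The 163 cells with at least 6438 UMIs were thinned to that number, and of 5005 genes with a mean of at least 0.2 UMIs, 751 (15%) had a variance of at least 1.5 times the mean, where 1 is the value of counting error alone and the median gene had 1.09. Slpi had a ratio of 66.5, with 0 to 281 UMIs per cell and a median of 31. Lgals1 (galectin-1, a secreted lectin) had 42.0, with a median of 1 and a highest value of 132 UMIs. Igfbp5 had 32.2 and Mgp (matrix Gla protein, an inhibitor of calcification) 30.5. Spp1 (osteopontin) had 96.0 with the carriers and 0.955 without them. Without the carriers, 581 of 4900 genes had a variance of at least 1.5 times the mean.

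Over the 135 of these cells that were not carriers, Lgals1 went with Csrp2 (Spearman's rho 0.82), Fgf1 (0.81), Col1a2 (0.79), Igfbp4 (0.78) and Osr1 (0.78), and against Bsg (-0.79), Bst1 (-0.78), Bcam (-0.76), Myl7 (-0.74) and Fmo2 (-0.73). Fos went with Jun (0.76), Fosb (0.73) and Egr1 (0.73). The cells share a library and a depth, and the correlations are a description.

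From this pattern, and so after the values were seen, the cells were divided into ranges by UMIs of Lgals1, Csrp2, Fgf1 and Osr1 against UMIs of Fmo2, Bst1, Myl7 and Bcam, leaving out the carriers and 1 cell with under 10 UMIs of these genes. The Lgals1 range held 59 cells and the Bst1 range 88. In the Lgals1 range, 1 cell of 38271 UMIs had only 11 UMIs of the rule genes. It had 671 UMIs of Lgals1, Csrp2, Fgf1 and Osr1, where the median of that range was 95, and it was kept in the sums. They are ranges of a measure and not types, and 10 cells of the Lgals1 range and 3 of the Bst1 range lay within 2-fold of the line. Median depth was 12314 UMIs in the Lgals1 range and 11692 UMIs in the Bst1 range, and median mitochondrial share 2.23% and 2.22%. In these ranges, which leave out the carriers, some genes of other types were lower than over all mesothelial cells. Il1b had 5.22 CPM in the Lgals1 range and 30.4 CPM in the Bst1 range, Cyp26b1 5.22 and 4.74 CPM, and F8 8.35 and 0.949 CPM. With the carriers added, 32 of the 33 fell in the Bst1 range. Cells outside the rule can hold UMIs of Fmo2, Bst1, Myl7 and Bcam too, such as 1 with 3 rule UMIs and 48 UMIs of these genes. The 6 carriers with cholangiocyte genes had 0 UMIs of Myl7. What placed the carriers in this range was not tested.

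**Figure D4:**
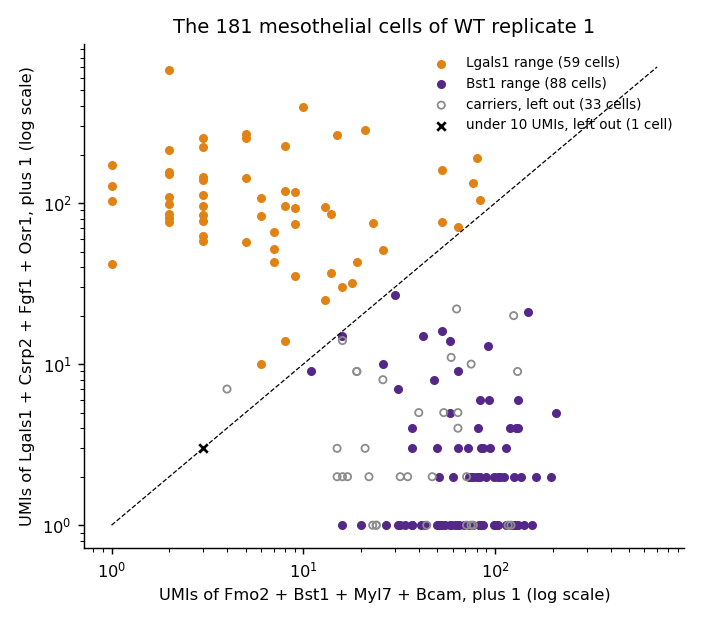
UMIs of Fmo2, Bst1, Myl7 and Bcam plus 1 (horizontal axis) against UMIs of Lgals1, Csrp2, Fgf1 and Osr1 plus 1 (vertical axis), both on log scales, for each of the 181 mesothelial cells. The 59 cells of the Lgals1 range lie above the dashed line of equal sums and the 88 of the Bst1 range on or below it, with 13 of these cells within 2-fold of it; grey rings are the 33 carriers.

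Of 8693 genes, leaving out those used for the division, 655 (7.53%) were at least 2-fold higher in the Lgals1 range. In the Bst1 range 522 (6.0%) were at least 2-fold higher, and the median log2 fold change was 0.06. Genes that went with or against Lgals1 over these cells, such as Col1a2, Igfbp4 and Aqp1, differ between the ranges by the choice of the split. Their differences describe the split and are no separate support for it. Both ranges held mesothelial genes that the rule did not use: Wt1 had 475 CPM in the Lgals1 range and 386 CPM in the Bst1 range, Bnc1 103 and 141 CPM, and Rspo1 729.5 and 875 CPM. Of the rule genes, which every cell was chosen for, Upk3b had 2037 and 2148 CPM. Msln was lower in the Lgals1 range, with 855 against 2322 CPM, as was Slpi, with 3508 against 10925 CPM. Of 19 mesothelial genes outside the rule, 1 was at least 2-fold higher in the Lgals1 range and 5 in the Bst1 range.

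The Lgals1 range had more of the type I collagen and fibronectin genes and of growth factor binders. Of 20 binders and inhibitors that passed, 9 were at least 2-fold higher in the Lgals1 range and 1 in the Bst1 range. Interstitial matrix genes went both ways, with 10 of 28 higher in the Lgals1 range and 6 in the Bst1 range. Col1a1 had 960.2 CPM in the Lgals1 range and 166 CPM in the Bst1 range, Fn1 (fibronectin) 369 against 16.1 CPM and Igfbp4 2459 against 241 CPM. Enpp2 (autotaxin, which makes lysophosphatidic acid) was seen in 83.1% of cells of the Lgals1 range at 452 CPM and had 0 UMIs in the Bst1 range, which makes it at least 159-fold higher. Thbd (thrombomodulin, an anticoagulant receptor) had 476 against 33.2 CPM, and Podxl 168 against 11.4 CPM. Lgals7 had 675 against 49.3 CPM and the claudin Cldn10 243 against 25.6 CPM.

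The Bst1 range was higher in some transport and complement genes. Of 17 transport genes 3 were at least 2-fold higher in the Lgals1 range and 8 in the Bst1 range, and of 15 complement genes 0 and 4. Junction genes were split evenly, with 5 of 24 higher in each range, and of 33 receptors 2 were higher in the Lgals1 range and 6 in the Bst1 range. C4b had 348 CPM in the Lgals1 range and 1479 CPM in the Bst1 range, and Krt7 164 against 765 CPM. Aqp1 had 277 against 1200 CPM and Slc39a8 219 against 1118 CPM. Angptl7, a secreted protein of the angiopoietin-like family, had 0 UMIs in the Lgals1 range and was seen in 63.6% of cells of the Bst1 range at 212 CPM, at least 67.6-fold higher there. Prph had 3.13 against 328 CPM, Alcam (an adhesion protein) 21.9 against 395 CPM, Il18r1 13.6 against 257 CPM and Tgfb2 35.5 against 223 CPM.

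The genes of the portal fibroblast gate differed by gene, and 50 of the 59 cells of the Lgals1 range met that gate, against 14 of the 88 of the Bst1 range. Col1a1 had 960.2 CPM in the Lgals1 range and 166 CPM in the Bst1 range, against 1641 CPM in portal fibroblast gate cells. Dpt had 1.04 CPM in the Lgals1 range and 11.4 CPM in the Bst1 range, against 2037 CPM in portal fibroblast gate cells, and Mfap4 had 3.13 and 31.3 CPM against 549 CPM. The Dpt level came from 1 UMI in the Lgals1 range and from 12 UMIs in 3.41% of cells of the Bst1 range. Clec3b had 740.0 and 140.4 CPM against 1446 CPM. The summed portal fibroblast gate genes stood at 1772 CPM in the Lgals1 range and 475 CPM in the Bst1 range, and their part in the differences was not tested. Immediate early and heat shock genes summed to 33348 and 23082 CPM, and their part was not tested either.

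**Figure D5:**
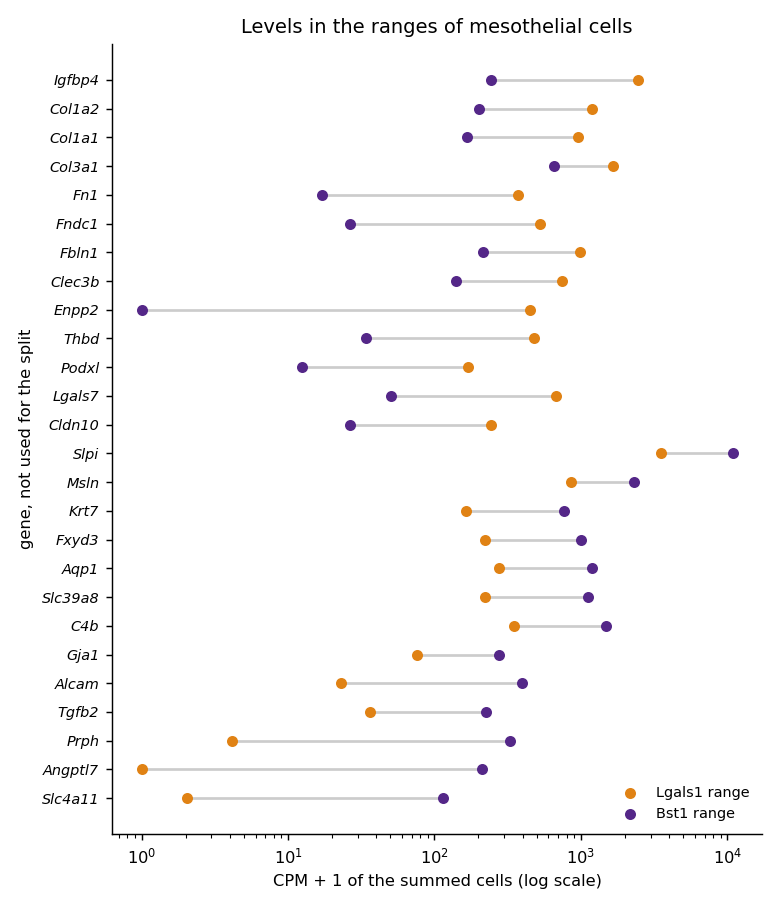
Summed level of 26 genes (vertical axis) as CPM plus 1 on a log scale (horizontal axis), in the Lgals1 range (orange, 59 cells) and the Bst1 range (purple, 88 cells). The genes did not enter the division, but several, such as Igfbp4, Col1a1, Enpp2 and Aqp1, went with or against Lgals1, so they differ by the choice of the split. Enpp2 is at 0 UMIs in the Bst1 range and Angptl7 at 0 UMIs in the Lgals1 range; collagens, Fn1 and Igfbp4 lie to the right in orange, and Slpi, Krt7, Aqp1 and C4b in purple.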

How the data were processed

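The deposited table gives raw UMI counts per gene and cell, whole numbers in 22508 genes and 9703 cells. The submitters' processing notes name Cell Ranger 2.1.1, Seurat 3.1 and GRCm38, and how each was used is not given in the sources used here. The number at the end of a barcode was read as the replicate number. WT replicate 1 had 7362 cells of 503 to 66125 UMIs, and 597 cells above 20% mitochondrial UMIs were left out.

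The members, the gene lists and the gates were chosen with earlier results of these data known. Counts were summed over the cells of a group and scaled to CPM. Genes with a mean of at least 10 CPM were called at 2-fold, and a sum of 0 was set to 3 UMIs for a bound. No test was possible, since the cells come from 1 library. Intervals of 95% are exact Poisson for levels, exact binomial for shares and conditional on the sum for ratios. 3 listed symbols were matched through RefSeq synonyms (Ccn1, Ccn2 and Ccn3).

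Named genes are the 6 rule genes, up to 4 by level and 4 by ratio per list, the 15 highest and 10 lowest unlisted ratios, the 10 most variable genes and the 10 largest ratios over each gate. The text gives a selection and adds genes chosen after their values were seen, among them those of the Lgals1 and Bst1 ranges. Python 3.11.15 with numpy 2.4.6, scipy 1.17.1 and pandas 2.3.3 was used, with TMM factors from edgeR 4.0.16 as an alternative scaling of the counts, and the fold and spread code was tested on simulated data. Other alternatives changed the rule, the cell filters, the level filter, the scaling and the gates.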

Additional observations from a re-analysis of the deposited data

How the results depend on the processing

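Moving the rule to 5 or 20 UMIs, the mitochondrial limit to 10% or the lowest depth to 1500 UMIs, or leaving out the 5% deepest mesothelial cells, kept the share of mesothelial cells within its interval (2.47 to 3.05%). Leaving out mesothelial cells that met another gate kept 30 cells (0.443%), as 99 met the cholangiocyte gate and 65 the portal fibroblast gate, and leaving out the 33 carriers, added after seeing the data, gave 2.19%. The counts of genes higher and lower against all other cells were 538 and 760 at a mean of at least 50 CPM, 6224 and 3677 without a level filter, and 778 and 1000 at 4-fold, which follow from what each setting tests. The number of genes with a ratio of variance to mean of at least 1.5 was 2050 without thinning. With the carriers, 789 genes were higher in the Bst1 range.

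The log2 fold of Epcam was -0.26 at 20 UMIs of the rule and -3.35 without carriers, and that of Tspan8 was -0.17, from 4 UMIs, without cells of another gate. The other values past 0 come from 0 UMIs in mesothelial cells set to the floor of 3, so they are upper bounds. Epcam and Wfdc18 were higher in the main setting, so bounds below 0 are reversals. Without cells of another gate they were at most -1.60 for Epcam and -0.16 for Wfdc18, and without carriers at most -3.33 for Wfdc18. Epcam is itself a gene of the cholangiocyte gate and of the carrier marks, so its fall follows from that choice. Bounds above 0 do not settle the sign: without cells of another gate at most 0.18 for Cd3e, 0.0745 for Cdk1 and 0.56 for Hbb-bt. No paired analysis was possible because the result comes from no test and 1 library holds all the cells. Depth limits genes seen in few UMIs, and no replicate check of these cells exists.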
